A study of Mus musculus with 8 samples.

Results

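Mammalian cells keep protein thiols and glutathione reduced with NADPH-dependent flavoenzymes, and 4 genes for such enzymes, of 12393 genes read by the arrays, are described here in liver: Txnrd1, Txnrd2, Txnrd3 and Gsr. All probe sets were taken that the platform annotation pairs with exactly 1 of these genes, which gave 10 of 22626 non-control probe sets: 3 for Txnrd1, 2 for Txnrd2, 3 for Txnrd3 and 2 for Gsr. No probe set was paired with a member and another gene together. The 8 arrays are RNA from whole livers of female mice, 1 animal each, all 4 weeks old on a C57BL/6J background and all harvested in the late morning. The genotypes are TrxR1/Gsr-null (n = 4) and WT (n = 4), and the submitters label the arrays of each as biological replicates 1 to 4. The labels name neither the alleles, nor the part of Txnrd1 or Gsr that was removed, nor the cells in which removal took place, and they do not say whether the WT animals were littermates.

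The thioredoxin reductases are selenoproteins that pass electrons from NADPH to thioredoxin, which in turn reduces peroxiredoxins, ribonucleotide reductase and methionine sulfoxide reductases. Txnrd1 encodes the cytosolic enzyme TrxR1, Txnrd2 the mitochondrial enzyme and Txnrd3 a form found mainly in testis that carries an additional glutaredoxin domain. Gsr encodes glutathione reductase, which turns glutathione disulfide back into glutathione and contains no selenocysteine. Txnrd1 is a known target of the transcription factor Nrf2, which the submitters name in their title, and mice without Txnrd1 or without Txnrd2 throughout the body die as embryos, while mice without Gsr are viable.

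Values are log2 expression after GCRMA (a background correction, normalization and probe set summary for Affymetrix arrays), and a difference is TrxR1/Gsr-null minus WT. A probe set was called at a limma p below 0.05 after Benjamini-Hochberg adjustment over all 22626 probe sets. Values at or under 3.38, the 40th percentile of gene means, are named as below the low-value limit, since GCRMA pulls such values together. Levels were not compared between probe sets. Array medians lay between 3.56 and 3.78. WT replicates 3 and 4 stood apart, since the middle of their value distributions was narrower (interquartile range 3.97 and 3.74, while the 6 others had 4.31 to 4.44), so results are also given without them. Of 6 measured hepatocyte markers, all were above the low-value limit on the arrays. Markers of other cell types are given with the results on Txnrd2 and Txnrd3.

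The plot of every reductase probe set by array shows the outcome. The brightest Txnrd1 probe set was higher in all 4 TrxR1/Gsr-null livers than in any WT liver, both Gsr probe sets were lower in all 4, and the groups overlapped for Txnrd2, for Txnrd3 and for the other Txnrd1 probe sets. Of the 10 probe sets, 1 was called higher, against 2.09% of all probe sets, and 2 were called lower, against 0.888% of all. The groups did not overlap in these same 3 probe sets, 1 higher and 2 lower. Over all probe sets, 6.83% had no overlap with the TrxR1/Gsr-null group higher and 4.37% with it lower. Of the 10, 6 passed a filter on low values (mean above the limit, or at least 4 arrays above it), and none was left out of the test.

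**Figure D1:**
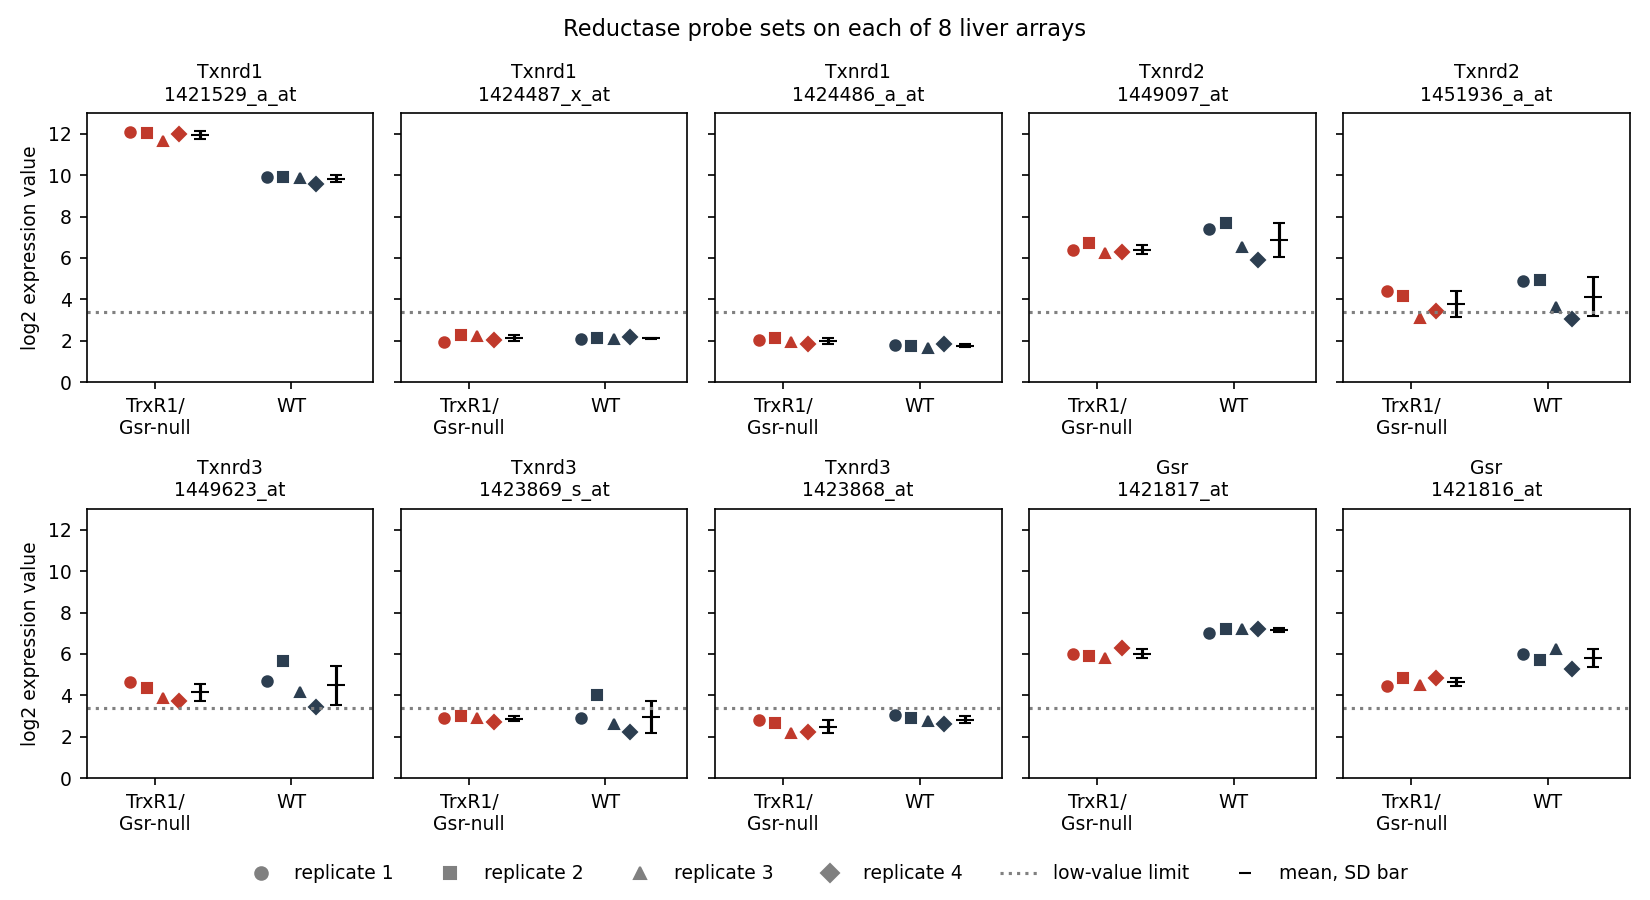
Log2 expression value (vertical axis) of each of the 10 reductase probe sets on 8 arrays, TrxR1/Gsr-null left and WT right in each panel. Symbols are animals, the black bar is the mean with its SD (n = 4), and the dotted line is the low-value limit of 3.38. The Txnrd1 values of 1421529_a_at lie from 11.65 to 12.07 in TrxR1/Gsr-null livers and from 9.56 to 9.93 in WT livers, and the groups are also apart in both Gsr panels.

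Txnrd1, the gene of the cytosolic thioredoxin reductase, was read high above background by the probe set 1421529_a_at. It stood at 12.07, 12.01, 11.65 and 11.96 in the TrxR1/Gsr-null livers of replicates 1 to 4, against 9.90, 9.93, 9.88 and 9.56 in the WT livers. The lowest TrxR1/Gsr-null value thus lay above the highest WT value. The difference was 2.11 ± 0.15 (SE) log2 units, with a 95% interval of 1.76 to 2.45, which is 4.31-fold (3.39 to 5.48), and its adjusted p was 0.00016 by limma. The exact two-sided permutation test gave p = 0.0286, the smallest p that 4 arrays against 4 allow. The difference was the 95th largest rise among 22626 probe sets. Between arrays of the same replicate number it was 2.18, 2.09, 1.77 and 2.40. In bulk liver, a change in the share of cells of a type and a change in RNA per cell cannot be told apart.

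The other Txnrd1 probe sets gave no such reading. Probe set 1424486_a_at had values of 2.06, 2.15, 1.96 and 1.82 in TrxR1/Gsr-null livers, against 1.78, 1.75, 1.66 and 1.86 in WT livers. Probe set 1424487_x_at had values of 1.95, 2.26, 2.21 and 2.04 in TrxR1/Gsr-null livers, against 2.09, 2.13, 2.10 and 2.16 in WT livers. All 16 values are below the low-value limit, so these probe sets hold no usable level for either group. Their differences were 0.23 (95% interval -0.06 to 0.53, adjusted p = 0.417 by limma) and -0.0067 (-0.30 to 0.28, adjusted p = 0.986 by limma). The mean of all 3 probe sets differed by 0.78 ± 0.12 (SE), with adjusted p = 0.00998 by limma. Since this mean takes in the values below the low-value limit, it is no estimate of the change of Txnrd1. Where in the transcript each probe set lies was not tested, so the rise at 1421529_a_at does not check whether the part removed in the TrxR1/Gsr-null animals is gone.

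RefSeq promoter windows in the mouse assembly GRCm38.p6, from 250 bases before to 50 bases after an annotated start, were matched for 3 of the 4 genes (Txnrd1, Txnrd2 and Txnrd3). Txnrd1 has 3 such windows. They were searched on both strands for the core of the antioxidant response element, TGACNNNGC, the element that Nrf2 binds together with small Maf proteins. It is found in 12.4% of all 32851 windows of this length. Of the Txnrd1 windows 1 held a match, and neither the Txnrd2 nor the Txnrd3 window did. The Txnrd1 window with the match and the windows of the untargeted Txnrd2 and Txnrd3 are shown, 5′ to 3′, with the match in capitals. It lies on the minus strand, from base -92 to base -84 relative to the start, and so reads here as the reverse complement of the core.
Txnrd1, chr10:82858956-82859255, plus strand: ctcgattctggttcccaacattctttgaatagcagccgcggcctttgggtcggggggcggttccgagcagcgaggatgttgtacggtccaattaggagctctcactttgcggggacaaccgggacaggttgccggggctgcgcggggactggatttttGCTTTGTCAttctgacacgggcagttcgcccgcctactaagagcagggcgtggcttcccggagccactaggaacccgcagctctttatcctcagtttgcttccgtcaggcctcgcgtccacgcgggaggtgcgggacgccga
Txnrd2, chr16:18426167-18426466, plus strand: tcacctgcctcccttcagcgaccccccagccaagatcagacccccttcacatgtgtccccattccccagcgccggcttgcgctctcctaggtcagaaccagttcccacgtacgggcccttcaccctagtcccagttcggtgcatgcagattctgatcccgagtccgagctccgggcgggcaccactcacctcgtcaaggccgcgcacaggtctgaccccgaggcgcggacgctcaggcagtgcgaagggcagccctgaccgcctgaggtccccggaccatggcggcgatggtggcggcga
Txnrd3, chr6:89643738-89644037, plus strand: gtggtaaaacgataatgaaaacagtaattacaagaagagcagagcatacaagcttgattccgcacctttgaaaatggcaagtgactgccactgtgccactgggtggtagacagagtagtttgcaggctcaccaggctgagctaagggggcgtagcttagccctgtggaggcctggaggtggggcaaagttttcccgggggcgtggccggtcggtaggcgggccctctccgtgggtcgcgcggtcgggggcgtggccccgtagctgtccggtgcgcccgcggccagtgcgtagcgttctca
The Txnrd1 and Txnrd2 windows each also held 1 GC box (GGGCGG), a motif in 35.7% of all windows, which overlaps no match of the other motif. The windows have a GC content of 61.3% (Txnrd1), 67% (Txnrd2) and 60.3% (Txnrd3). A match is a description of these letters and not a bound site.

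Gsr, the gene of glutathione reductase, was lower in the TrxR1/Gsr-null livers at both of its probe sets, by nearly the same amount. Probe set 1421817_at stood at 6.02, 5.89, 5.82 and 6.31 in TrxR1/Gsr-null livers, against 7.03, 7.21, 7.21 and 7.20 in WT livers. Probe set 1421816_at stood at 4.45, 4.82, 4.48 and 4.83 in TrxR1/Gsr-null livers, against 6.01, 5.69, 6.26 and 5.29 in WT livers. Neither probe set overlapped between the groups, and all 16 values were above the low-value limit, those of the TrxR1/Gsr-null livers included. Where these probe sets lie relative to the part of Gsr removed was not tested. Their values therefore do not show whether intact Gsr transcript remained.

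The difference was -1.15 ± 0.15 (SE) at 1421817_at, with a 95% interval of -1.49 to -0.82 and adjusted p = 0.00336 by limma. At 1421816_at it was -1.17 ± 0.22 (SE), with a 95% interval of -1.66 to -0.67 and adjusted p = 0.0225 by limma. These are levels 2.23-fold and 2.24-fold lower. The exact permutation test gave its smallest p, 0.0286, for each. The probe sets differed from each other within an array by 1.36 ± 0.22 log2 units in TrxR1/Gsr-null livers and by 1.35 ± 0.45 in WT livers (SD, n = 4 each), so no unequal change between them was found (difference 0.01, exact p = 1). Between arrays of the same replicate number the fall was 0.89 to 1.39 at 1421817_at and 0.45 to 1.78 at 1421816_at. Since the groups do not overlap, any pairing of arrays gives a fall in every pair.

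The Gsr call differs in firmness between the probe sets. At 1421817_at it held with each array left out in turn (adjusted p from 0.00486 to 0.0186 by limma). At 1421816_at it held in 2 of those 8 fits, without WT replicate 2 or without WT replicate 4, with adjusted p from 0.00864 to 0.0719 by limma over the 8. Within replicates 3 and 4 alone, 2 arrays against 2, the differences were -1.14 and -1.12 with adjusted p of 0.0958 and 0.174 by limma.

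**Figure D2:**
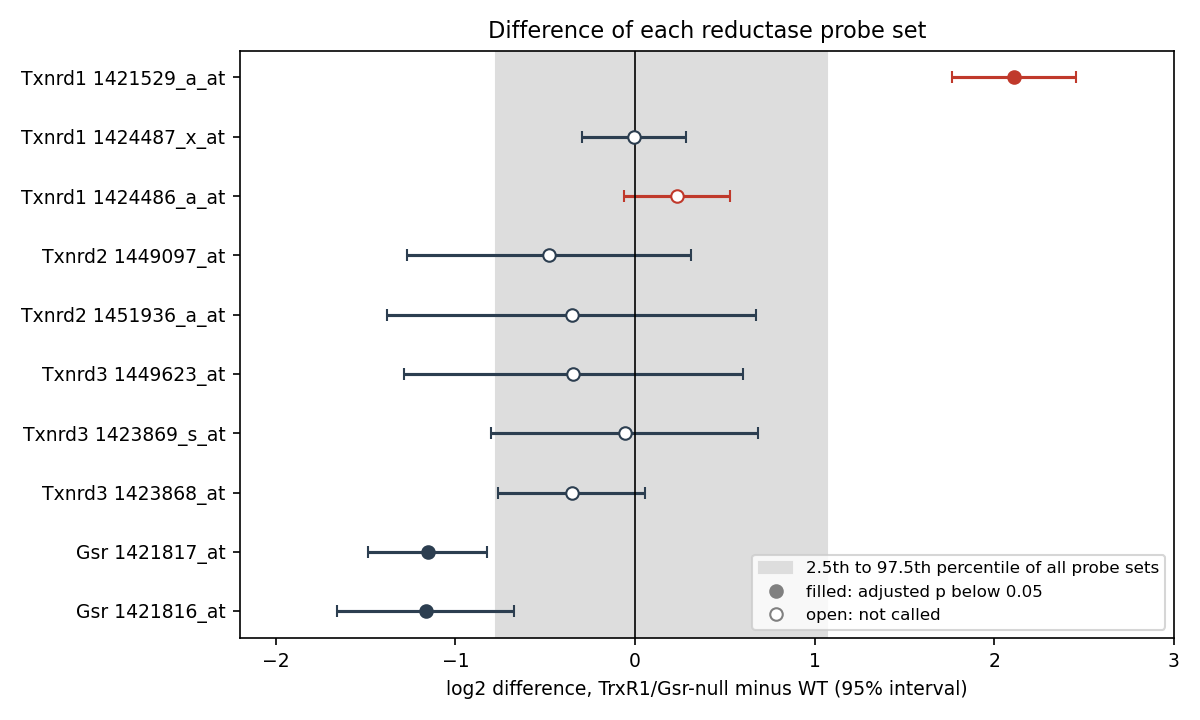
Log2 difference between TrxR1/Gsr-null and WT livers (horizontal axis, points) with its 95% interval (bars) for each of the 10 reductase probe sets, 4 arrays per group. Filled points passed an adjusted p of 0.05, and the grey band holds the central 95% of the differences of all 22626 probe sets. Txnrd1 at 1421529_a_at stands right of the band at 2.11, both Gsr probe sets stand left of it at -1.15 and -1.17, and the 7 other points lie within it.

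Txnrd2, the mitochondrial reductase, was not a target of the deletion and was not called. Probe set 1449097_at had values of 6.36, 6.70, 6.24 and 6.29 in TrxR1/Gsr-null livers, against 7.41, 7.68, 6.52 and 5.91 in WT livers. The TrxR1/Gsr-null values lay close together (SD 0.21), while the WT values spread widely (SD 0.81), with replicates 1 and 2 above every TrxR1/Gsr-null liver and replicate 4 below every one of them. The difference was -0.48 ± 0.35 (SE), with a 95% interval of -1.27 to 0.31 and adjusted p = 0.534 by limma. The second probe set, 1451936_a_at, had values of 4.39, 4.17, 3.10 and 3.43 in TrxR1/Gsr-null livers, against 4.87, 4.94, 3.64 and 3.04 in WT livers. It showed the same order among the WT livers, with 1 value of each group below the low-value limit. Its difference was -0.35 (95% interval -1.38 to 0.67, adjusted p = 0.743 by limma). The interval of 1449097_at includes a fall of 2-fold.

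The Txnrd2 value depended on which WT arrays entered. At 1449097_at the difference was -0.30 without WT replicate 1, -0.21 without WT replicate 2, -0.60 without WT replicate 3 and -0.80 without WT replicate 4, with no call in these fits (adjusted p from 0.21 to 0.753 by limma). Without WT replicates 3 and 4 the difference at 1449097_at was -1.14 ± 0.18 (SE), with adjusted p = 0.0277 by limma, and it was called. That fit kept TrxR1/Gsr-null replicates 3 and 4, so its groups were not balanced for replicate number. With all arrays and replicates 1 and 2 against 3 and 4 as a block, the difference was -0.48. It was then not called (adjusted p = 0.267 by limma). Within replicates 1 and 2 alone it was -1.01 (adjusted p = 0.043 by limma), and within replicates 3 and 4 alone it was 0.05 (adjusted p = 0.934 by limma). With arrays weighted by their fit it was -0.91 (adjusted p = 0.0592 by limma). At 1451936_a_at the difference was -1.14 without WT replicates 3 and 4, with adjusted p = 0.184 by limma, and -0.71 to -0.080 with 1 array left out, the smallest being without WT replicate 2. The narrower distributions of WT replicates 3 and 4 moved with this result, and their part in it was not tested.

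Txnrd3, the testis-type reductase, was read above the low-value limit by 1 of its 3 probe sets on all arrays. This probe set, 1449623_at, had values of 4.62, 4.35, 3.87 and 3.74 in TrxR1/Gsr-null livers, against 4.70, 5.66, 4.16 and 3.44 in WT livers. WT replicate 2 was the highest of the 8 and WT replicate 4 the lowest, and the groups overlapped. The difference was -0.34 ± 0.42 (SE), with a 95% interval of -1.29 to 0.60 and adjusted p = 0.728 by limma. Probe set 1423869_s_at exceeded the limit on 1 array of 8, WT replicate 2 at 4.01, with the other 7 between 2.22 and 3.02. Probe set 1423868_at stayed below the limit on all 8 arrays, between 2.20 and 2.80 in TrxR1/Gsr-null livers and between 2.62 and 3.03 in WT livers. Their differences were -0.06 (adjusted p = 0.949 by limma) and -0.35 (adjusted p = 0.382 by limma). The suffix of 1423869_s_at marks a probe set that can match several transcripts.

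All 6 measured marker genes of testis germ cells, including the protamines Prm1 and Prm2, lay below the low-value limit, and their summed linear values were 26.6 to 32.0 in TrxR1/Gsr-null livers and 30.5 to 50.0 in WT livers. The 6 lymphocyte markers were below it too. No marker gene of any of 8 cell types was called by limma. At an unadjusted limma p under 0.05, 1 of 6 hepatocyte, 3 of 7 macrophage, 1 of 6 endothelial and 2 of 6 germ cell markers were lower and 1 of 4 bile duct markers was higher, and by the exact test each cell type had 0 to 2 markers with p under 0.05. No share of all genes at the unadjusted p is given, here or for the lists and neighbours. Whether such counts exceed that share was not tested. An exact p under 0.05 requires groups that do not overlap. Over all probe sets, 6.83% had no overlap with TrxR1/Gsr-null higher and 4.37% with it lower. The summed linear values of the 6 hepatocyte markers were 49836 to 65150 in TrxR1/Gsr-null livers and 70225 to 82088 in WT livers. These sums did not overlap, and all 6 differences were negative, with a smallest adjusted p of 0.278 by limma. Negative differences were not particular to hepatocyte markers. They were found in 6 of 6 stellate cell, 6 of 6 germ cell, 6 of 7 macrophage and 5 of 6 endothelial markers. Among bile duct markers 2 of 4 were negative, among lymphocyte markers 2 of 6 and among erythroid markers 2 of 3. The part of any marker in the differences of the reductases was not tested.

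**Figure D3:**
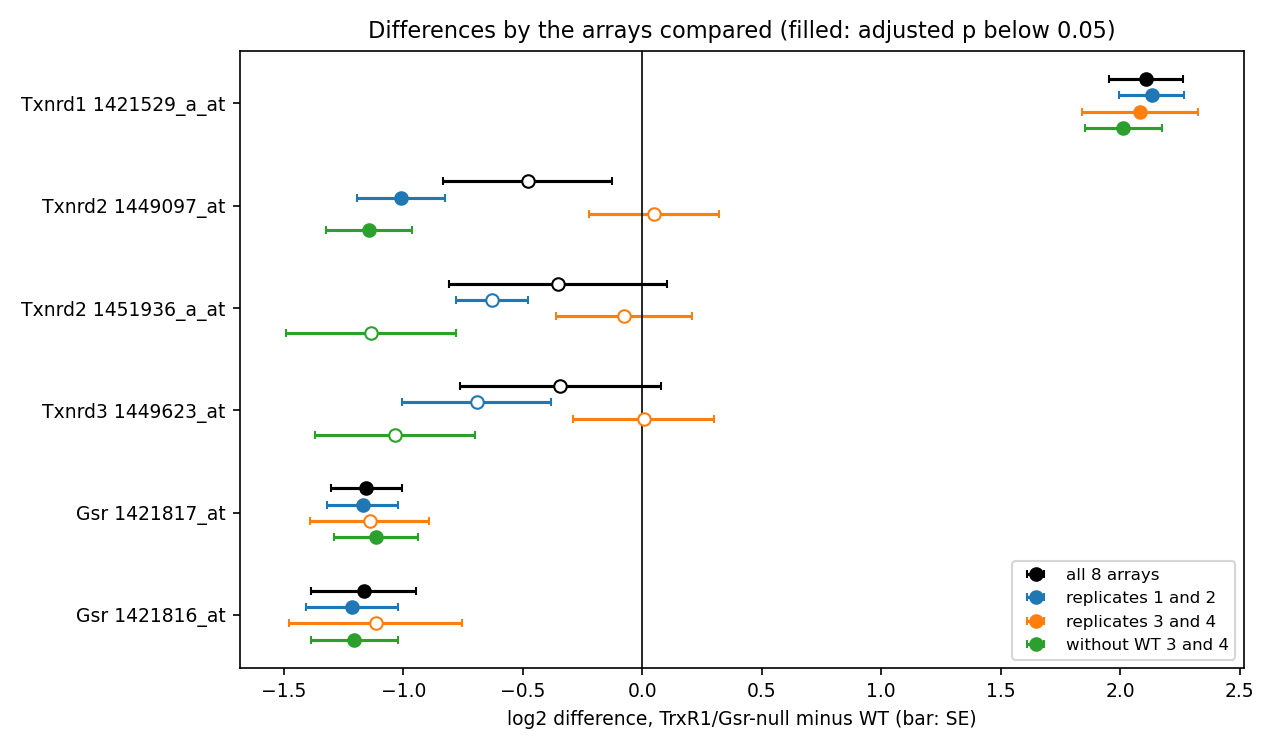
Log2 difference between TrxR1/Gsr-null and WT livers (horizontal axis, points) with its SE (bars) for the 6 reductase probe sets that passed the filter on low values, from all 8 arrays and from 3 subsets of them. Filled points passed an adjusted p of 0.05. The Txnrd1 point stays between 2.01 and 2.13 and the Gsr points between -1.22 and -1.11 in every subset shown, while Txnrd2 at 1449097_at runs from -1.14 without WT replicates 3 and 4 to 0.05 within replicates 3 and 4.

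The members were then set against each other within each array, which removes array-wide scaling, using the brightest probe set of each gene and 6 pairs of genes. A within-array value has no meaning as a ratio of transcripts, and only its change between the groups was compared. Txnrd1 minus Gsr was 6.06, 6.13, 5.83 and 5.66 in TrxR1/Gsr-null livers, against 2.86, 2.72, 2.67 and 2.36 in WT livers. Its change of 3.26 log2 units was the widest of the 6 pairs, and the groups were far apart relative to the SD of 0.22 in TrxR1/Gsr-null and 0.21 in WT livers. Txnrd1 also rose relative to Txnrd2, by 2.59, and relative to Txnrd3, by 2.45. For these 3 pairs the exact two-sided p was 0.0286, its smallest value, and 0.0571 after adjustment over the 6 pairs, which this design cannot go below when 3 pairs reach that p. A limma fit on the 6 within-array differences gave adjusted p of 2.93e-07, 3.86e-05 and 0.000137. The 6 differences share probe sets and are not independent. All 3 pairs contain the Txnrd1 probe set already called by itself, so these p values are no separate evidence.

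The 3 pairs without Txnrd1 overlapped between the groups. Txnrd2 minus Gsr averaged 0.39 ± 0.34 in TrxR1/Gsr-null livers and -0.28 ± 0.85 in WT livers, a change of 0.68 (exact p = 0.286, adjusted 0.343). Txnrd3 minus Gsr averaged -1.86 ± 0.52 in TrxR1/Gsr-null livers and -2.67 ± 0.95 in WT livers, a change of 0.81 (exact p = 0.2, adjusted 0.3). Between arrays of the same replicate number, Txnrd3 minus Gsr was higher in the TrxR1/Gsr-null liver in 4 of 4 pairs, by 0.93, 0.022, 1.09 and 1.20, and Txnrd2 minus Gsr in 3 of 4. With the replicate number as a block, a choice made after the data were seen, limma gave adjusted p = 0.0253 for Txnrd3 minus Gsr and 0.0561 for Txnrd2 minus Gsr. This fit too rests on differences that share probe sets. The exact sign-flip test of 4 pairs cannot go below p = 0.125, which Txnrd3 minus Gsr reached. Unequal change of Txnrd3 and Gsr thus passed the test with the block and not without it. Txnrd2 minus Txnrd3 averaged 2.25 ± 0.35 in TrxR1/Gsr-null livers and 2.39 ± 0.28 in WT livers (SD, n = 4 each), a change of -0.14 (exact p = 0.571). Its WT SD of 0.28 is smaller than the WT SDs of 0.81 and 0.93 of these genes' own probe sets, so the untargeted reductases were high and low on the same WT arrays.

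**Figure D4:**
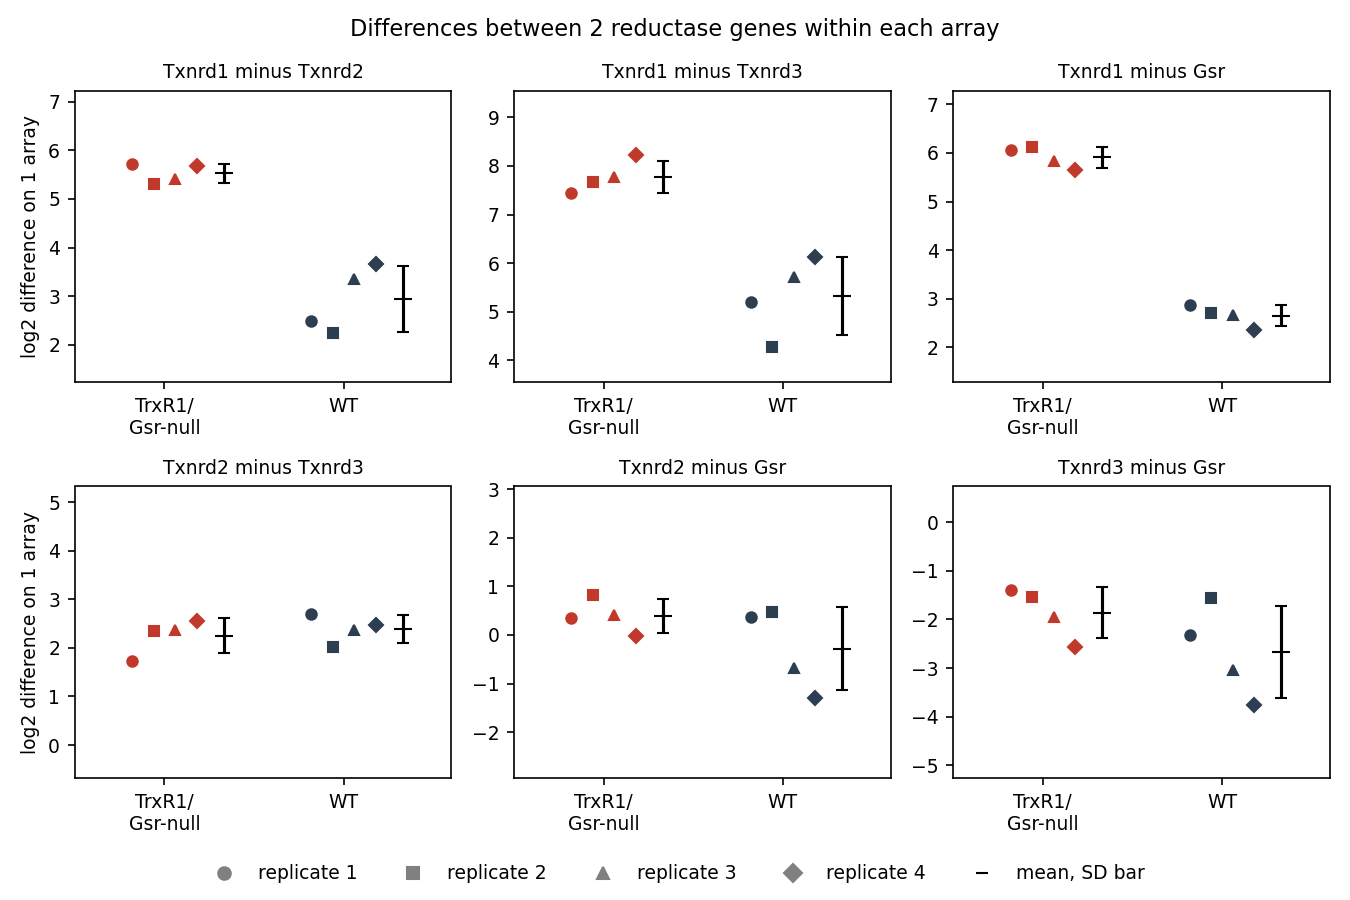
Log2 difference between the brightest probe sets of 2 reductase genes on the same array (vertical axis, each panel spanning 6 log2 units), for TrxR1/Gsr-null left and WT right. Symbols are animals and the black bar is the mean with its SD (n = 4). The 3 panels with Txnrd1 show groups that do not overlap, with a gap of 2.79 log2 units between the lowest TrxR1/Gsr-null and the highest WT value for Txnrd1 minus Gsr, and the 3 panels without it show overlapping groups.

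Among 7435 other genes above the low-value limit, those whose values ran most like each reductase over the 8 arrays were found by the root-mean-square difference of log2 values, each gene centred on its own mean. Nearest to Txnrd1 were Abcg2, an efflux transporter (0.18), Tkt, a transketolase of the pentose phosphate pathway (0.21), Ran, a nuclear transport GTPase (0.21), B4galt6 (0.23) and Entpd5 (0.24), against a median of 1.06 over all genes. These 5 were all called higher, by 1.86 to 2.21 log2 units, close to the 2.11 of Txnrd1. Nearest to Gsr were Nhsl1 (0.16), the telomere protein gene Terf1 (0.18), the transcription factor gene Nfix (0.18), the collagen gene Col18a1 (0.19) and Smad7, an inhibitor of TGF-beta signalling (0.20), against a median of 0.73. All 5 were called lower, by 0.97 to 1.23. The likeness of Txnrd1 and Gsr to these genes is mainly the step between the genotypes. The calls of these genes thus follow largely from how they were chosen and are no separate result. Nearest to Txnrd2 were Fgd6 (0.15), Map2k2, a MAP kinase kinase (0.16), Sirt3, a mitochondrial deacetylase (0.18), Nr1d1, a clock repressor (0.19) and Pth1r, the parathyroid hormone receptor (0.19). Nearest to Txnrd3 were Adcy9, an adenylate cyclase (0.21), Mtfp1 (0.23), Sars2, a mitochondrial seryl-tRNA synthetase (0.25), Letm1, a mitochondrial inner membrane protein (0.26) and Pdgfa (0.27). The genes nearest to Txnrd2 and Txnrd3 were not called. The arrays share their animals and their normalization across genes, and no test was made of these likenesses.

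Genes next to the reductases on the chromosome were compared in the same way. Of the 5 measured genes on each side of each member, 40 in all, none was called by limma, with 3 at an unadjusted p under 0.05 and 2 at an exact p under 0.05. At their brightest probe set, 2.32% of all 12393 genes were called higher and 1.04% lower. Their differences ran from -0.49 to 1.16 with a median of -0.05. Next to Gsr on chromosome 8, Ubxn8 averaged 7.04 ± 0.45 in TrxR1/Gsr-null livers and 5.88 ± 1.06 in WT livers, overlapping between the groups (adjusted p = 0.259 by limma), and Gtf2e2 on the other side averaged 6.32 ± 0.24 in TrxR1/Gsr-null livers and 6.28 ± 0.32 in WT livers (SD, n = 4 each). Next to Txnrd1 on chromosome 10, Nfyb differed by 0.27 and Chst11 by -0.18 (adjusted p = 0.759 and 0.693 by limma), Chst11 being below the low-value limit. With 10 genes on each side, none of 80 was called, with 10 at an unadjusted limma p under 0.05 and 7 at an exact p under 0.05. Of the 20 around Gsr, 5 had such an unadjusted p and 2 such an exact p. These 2 were Eri1, higher by 1.02 (adjusted p = 0.0727 by limma), and Dlc1, with a difference of -0.72 (adjusted p = 0.0583 by limma). Dlc1 was below the low-value limit.

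Around the reductases, some enzymes that make NADPH and glutathione were called higher, and most carriers of electrons were not called. Of 8 measured thioredoxins, glutaredoxins and their binding proteins none was called higher and 1 was called lower, with a median difference of 0.31 against -0.0030 over all genes. It was Txnip, which binds and inhibits thioredoxin, 1.89-fold lower (adjusted p = 0.0496 by limma), and it was called in 2 of the 8 fits with an array left out. With the replicate number as a block none of this list was called. Of the 8, 2 were higher and 2 lower at an unadjusted limma p under 0.05, and 5 had an exact p under 0.05. Txnl1, Txndc17 and Glrx, named here after their values were seen, were higher without overlap. They were not called (adjusted p = 0.337, 0.353 and 0.079 by limma). Txn1, the cytosolic thioredoxin that TrxR1 reduces, stood at 12.41, 12.41, 12.26 and 12.46 in TrxR1/Gsr-null livers, against 11.97, 11.88, 12.04 and 11.98 in WT livers. These groups did not overlap, the difference was 0.41 ± 0.12 (SE), and it was not called (adjusted p = 0.127 by limma). Txn2, the mitochondrial thioredoxin that Txnrd2 reduces, averaged 8.17 ± 0.16 in TrxR1/Gsr-null livers and 8.63 ± 0.21 in WT livers (SD, n = 4 each; adjusted p = 0.179 by limma).

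Of 7 measured thioredoxin-dependent peroxidases and repair enzymes 2 were called higher and none lower (median difference 0.31). Srxn1, which restores overoxidized peroxiredoxins, stood at 12.03, 11.45, 11.00 and 11.39 in TrxR1/Gsr-null livers, against 7.58, 7.24, 6.81 and 6.23 in WT livers, 22.7-fold higher (adjusted p = 0.000108 by limma). Prdx3, the mitochondrial peroxiredoxin, was 1.55-fold higher (adjusted p = 0.0286 by limma), a call that held in 2 of the 8 fits with an array left out and not without WT replicates 3 and 4. With the replicate number as a block 1 gene of the list was called. Prdx2 (0.32) and Prdx4 (-0.05) were not called.

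Of 13 measured genes of glutathione synthesis, peroxidases and glyoxalases 5 were called higher and none lower (median difference 0.88, and 7 higher with the replicate number as a block). Gclc, the catalytic subunit of glutamate-cysteine ligase, was 2.90-fold higher, Gss, the glutathione synthetase, 2.84-fold and Gpx4, which reduces lipid peroxides, 2.14-fold (adjusted p = 0.00105, 0.00677 and 0.013 by limma). Gpx2, a glutathione peroxidase best known from gut epithelium, averaged 9.02 ± 0.58 in TrxR1/Gsr-null livers and 3.31 ± 0.55 in WT livers (SD, n = 4 each), with adjusted p = 4.4e-05 by limma. The WT mean is below the low-value limit, so the size of this rise is not given as a fold. With each array left out in turn the count ran from 3, without TrxR1/Gsr-null replicate 2, to 6, without TrxR1/Gsr-null replicate 3. Gclm, the modifier subunit that partners Gclc, was the other gene called, at 1.85-fold (adjusted p = 0.0261 by limma), and it was called in 3 of the 8 fits with an array left out.

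Among the 12 measured genes that supply NADPH, limma called 4 higher and 0 lower (median difference 0.18). Pgd, which makes NADPH in the pentose phosphate pathway, was 5.83-fold higher, Tkt 4.04-fold, Nnt, the mitochondrial transhydrogenase, 2.26-fold and the malic enzyme Me1 2.07-fold (adjusted p = 0.002, 0.000363, 0.0152 and 0.0101 by limma). Nnt was called in 6 of the 8 fits with an array left out (adjusted p up to 0.0531 by limma). Whether both groups carry the same Nnt allele, or make active enzyme from it, was not tested. Pgls, which lies between glucose-6-phosphate dehydrogenase and Pgd in that pathway, averaged 8.18 ± 0.40 in TrxR1/Gsr-null livers and 8.26 ± 0.19 in WT livers (SD, n = 4 each) and was not called.

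**Figure D5:**
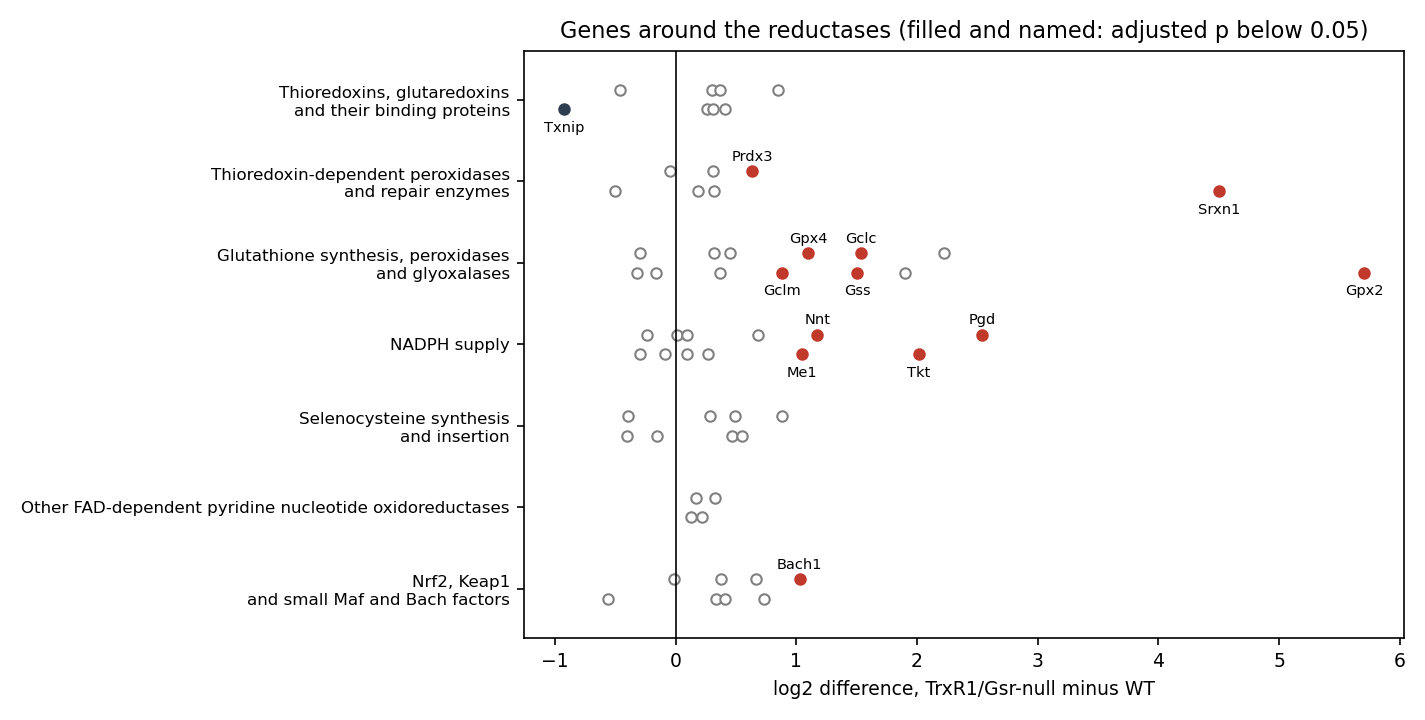
Log2 difference between TrxR1/Gsr-null and WT livers (horizontal axis) of each measured gene in 7 lists around the reductases (rows), at its brightest probe set. Filled and named points passed an adjusted p of 0.05, and open points did not. The filled points lie right of 0 in 4 of the lists and left of 0 for Txnip, and the selenocysteine and FAD-dependent lists have none.

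No gene of the machinery that puts selenocysteine into the thioredoxin reductases passed the test on all arrays. Of 8 measured genes for selenocysteine synthesis and insertion none was called by limma, with 2 at an unadjusted p under 0.05 and 1 at an exact p under 0.05 (median difference 0.38). Secisbp2l, a relative of the SECIS-binding protein gene Secisbp2 and named here after its value was seen, averaged 9.33 ± 0.38 in TrxR1/Gsr-null livers and 8.45 ± 0.29 in WT livers (SD, n = 4 each), without overlap (adjusted p = 0.0751 by limma). Sephs2, the selenophosphate synthetase that supplies the pathway, averaged 11.91 ± 0.23 in TrxR1/Gsr-null livers and 12.31 ± 0.33 in WT livers (SD, n = 4 each; adjusted p = 0.358 by limma). Pstk, the kinase that prepares the charged tRNA, differed by 0.47 (adjusted p = 0.436 by limma), and Sephs1 averaged 3.13 in TrxR1/Gsr-null livers and 3.28 in WT livers, below the low-value limit. With the replicate number as a block, 1 gene of this list was called higher.

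None of 4 measured relatives among the FAD-dependent pyridine nucleotide oxidoreductases was called by limma, and none had an unadjusted p or an exact p under 0.05. Dld, the dihydrolipoamide dehydrogenase and the closest of them in reaction to Gsr, averaged 9.57 ± 0.41 in TrxR1/Gsr-null livers and 9.24 ± 0.47 in WT livers (SD, n = 4 each). Aifm1, a mitochondrial flavoprotein, differed by 0.17 and Sqor, the sulfide quinone oxidoreductase, by 0.22.

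Of 8 measured genes for Nrf2, its repressors and its partners 1 was called higher and none lower (median difference 0.39). Bach1, a repressor that competes for Nrf2 sites, was 2.04-fold higher (adjusted p = 0.0397 by limma), and it was called in 2 of the 8 fits with an array left out and not without WT replicates 3 and 4. With the replicate number as a block none of the list was called. Nfe2l2, which encodes Nrf2, averaged 8.95 ± 0.33 in TrxR1/Gsr-null livers and 9.51 ± 0.24 in WT livers (SD, n = 4 each; adjusted p = 0.198 by limma). Keap1, which holds Nrf2 in check, averaged 7.64 ± 0.14 in TrxR1/Gsr-null livers and 7.23 ± 0.17 in WT livers (SD, n = 4 each), without overlap and without a call (adjusted p = 0.194 by limma).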

How the data were processed

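The authors deposited 1 table of log2 values, 1 per array for each probe set, which GCRMA produced per the submitters' processing notes. The log base is read from the deposited values, since no label states it, and neither version nor settings of GCRMA were found in the labels. Per the labels' protocols, total RNA came from RiboPure extraction and was biotin-labelled by MessageAmp amplification. Symbols came from the platform annotation (20380 non-control probe sets with 1 gene, 691 with several, 1555 with none) and were brought up to date with RefSeq's GRCm38.p6 gene table by identifier (20351 matched), which also gave gene order. Promoter sequences are RefSeq's, of the same assembly.

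All 22626 non-control probe sets were fitted with limma 3.58.1 in R 4.3.3 (lmFit, eBayes, 2 groups, no covariates, two-sided), with no filter on low values, and single values were tested by exact permutation over 70 assignments. The fit was tested on simulated data with 50 changed probe sets of each size. It called 0% of changes of 0.5 log2 units, 46% of those of 1, 70% of those of 2 and 100% of those of 4. A difference of about 0.5 log2 units that was not called is thus not shown to be absent. For genes outside the members, the brightest probe set was used, with those ending in _x_at set aside where another kind existed (12393 genes). Named genes were the members, up to 4 called genes per list and direction, each list's first 3 measured genes where uncalled, the 5 most alike genes, and neighbours. The neighbours named were chosen after their values were seen. Members and lists were chosen with earlier results of these data known. Alternatives were filters, scaling, priors, array weights, blocks and left-out arrays.

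Sample titles carry the replicate numbers. For the 4 pairs that share a number, deviations from group means had correlations between 0.21 and 0.38. They were therefore treated as pairs in the block alternative, though other pairs within replicates 1 and 2 or within 3 and 4 correlated as much (up to 0.39). The correlation between arrays ran from 0.952 to 0.994, and no 2 arrays held identical values. The number of arrays limits the precision.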

Additional observations from a re-analysis of the deposited data

Results flagged for a closer look

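Among 20 groups of 4 values (10 probe sets, 2 genotypes), 2 held a value far from the other 3 by Dixon's test, which by chance marks about 1 group in 20. WT replicate 4 had 9.56 at the Txnrd1 probe set 1421529_a_at, with the other WT livers between 9.88 and 9.93. WT replicate 1 had 7.03 at the Gsr probe set 1421817_at, with the other WT livers between 7.20 and 7.21. Both gaps are small beside the differences between the genotypes, and both calls held without that array.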

How the results depend on the processing

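The call of Txnrd1 at 1421529_a_at held in all 20 alternatives and that of Gsr at 1421817_at in 19, the exception being replicates 3 and 4 alone (-1.14). At 1421816_at Gsr was not called within replicates 3 and 4 (-1.12) nor in 6 of 8 fits with an array left out (-1.34 to -1.02 over the 8). Txnrd2 at 1449097_at was called within replicates 1 and 2 (-1.01) and without WT replicates 3 and 4 (-1.14). It was not called with replicates 1 and 2 against 3 and 4 as a block (-0.48), and its sign turned within replicates 3 and 4 (0.050). Signs of uncalled values near 0 also turned. Txnrd1 at 1424487_x_at was 0.061 after quantile normalization, 0.014 with array weights, 0.0043 without WT replicates 3 and 4 and -0.054 to 0.048 with an array left out. Txnrd3 at 1449623_at was 0.0059 within replicates 3 and 4 and -0.69 to 0.045 with an array left out. Txnrd3 at 1423869_s_at was 0.028 after quantile normalization, 0.39 within replicates 3 and 4 and -0.30 to 0.30 with an array left out. Txnrd2 minus Txnrd3 ran from -0.26 to 0.034 with an array left out. The cause was not tested. With the replicate block, the adjusted p by limma was 0.00125 for Txnrd1 at 1421529_a_at and 0.0112 and 0.0447 for Gsr, and no call of a member changed. Txnrd3 minus Gsr passed with it (0.0253) and not without it (0.15 by limma). Over all probe sets 472 were called higher and 201 lower, against 642 and 315 with the replicate block, 432 and 307 after quantile normalization, 880 and 590 with array weights, 1040 and 528 with replicates 1 and 2 against 3 and 4 as a block, and 178 and 29 within replicates 3 and 4. Without WT replicates 3 and 4, 247 were called higher, and within replicates 1 and 2, 377 were called lower. With an array left out, 254 to 513 were called higher and 103 to 172 lower, a shift of over 1.5 times in the first without TrxR1/Gsr-null replicate 1, 2 or 4 or WT replicate 3, and in the second without these or WT replicate 2. The stricter filter gave no value for probe sets it left out. Where values lie under the low-value limit, the size of a change cannot be read from them.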
